A study of Mus musculus with 10 samples.

Results

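Decorin, the related small leucine-rich proteoglycans and a set of matricellular genes were followed through 4 comparisons in C2C12 cells, a mouse myoblast line that fuses into myotubes when serum is withdrawn. The set holds 10 genes of the 23417 listed in each Huwe1 table (23431 in the USP10 table): decorin (Dcn), lumican (Lum), biglycan (Bgn), osteoglycin (Ogn), fibromodulin (Fmod), asporin (Aspn), Prelp, versican (Vcan), periostin (Postn) and Sparc. They were chosen by the decorin FPKM values, which were far higher in the treated cells at day 6, to see whether the difference extended to related matrix genes. Their values in all 4 tables are therefore a description, and no test was made on them.

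Messenger RNA was sequenced from 10 libraries. Proliferating cells were kept in medium with 10% fetal bovine serum (day 0), and differentiating cells in 2% horse serum. At day 0 and at day 6, 1 wildtype library was set against 2 libraries in which Huwe1, a ubiquitin ligase, was knocked down by short hairpin RNAs delivered to the myoblasts by lentivirus. By the labels these controls are wildtype, and the hairpins given in the labels are not those of the methods. Per the methods, knockdown cells were also selected with puromycin after infection. Virus infection, drug selection and knockdown therefore cannot be told apart at day 0 and day 6. In day 8 myotubes, 1 library with a non-targeting RNA was set against 2 Huwe1 knockdown libraries, and there the virus was added to differentiated cultures on day 4. The fourth comparison set 1 library of a stable line carrying a USP10 cDNA under the EF1a promoter, collected at day 6, against a day 6 control. USP10 is a deubiquitinase. All libraries come from 1 cell line, and the deposited tables hold 1 value per condition, in fragments per kilobase of transcript scaled to the mapped fragments (FPKM), the 2 knockdown libraries of a time point being pooled. The spread between cultures therefore cannot be given for any value below, and every ratio is a comparison of 2 columns.

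Huwe1 itself stood at 38.3 FPKM in control cells and 15.2 FPKM with the knockdown at day 0, at 35.1 and 21.9 FPKM at day 6, and at 55.4 and 33.0 FPKM in day 8 myotubes. Usp10 stood at 10.3 FPKM in control cells and 38.3 FPKM in the overexpression column. It was also 13.2 and 35.4 FPKM in the Huwe1 day 6 table, where no USP10 cDNA was added, so its level does not mark the transgene alone. The control libraries were estimated from the step size of the FPKM values at 7890000 to 30300000 fragments, the USP10 table's control being the shallowest. No such estimate could be made for the pooled knockdown columns. Of 7 differentiated muscle markers tested, 6 were at least 2-fold lower in the day 6 knockdown, 7 in the day 8 knockdown and 5 under USP10 overexpression. The shares of all genes at least 2-fold lower were 13.4%, 10.0% and 10.0% in that order, counting genes that reached 1 FPKM in 1 column or both.

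Small leucine-rich proteoglycans are secreted proteins built on leucine-rich repeats that bind collagen fibrils and set their width and spacing. Decorin, biglycan and asporin form class I, lumican, fibromodulin and Prelp class II, and osteoglycin belongs to class III. Most of them carry chondroitin, dermatan or keratan sulfate chains, and decorin and biglycan also bind TGF-beta and several growth factor receptors. Versican is a large chondroitin sulfate proteoglycan that binds hyaluronan in loose, provisional matrix. Periostin and Sparc are matricellular proteins, which modulate the contact of cells with matrix rather than bearing load. In muscle these genes are known mainly from the connective tissue cells around the fibres, and decorin is known as a binder of myostatin.

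RefSeq promoter windows of GRCm38.p6, from 250 bases before to 50 bases after a gene's start, matched 8 of the 10 genes (all but Dcn and Lum). A set of 5 short motifs was looked for on both strands: TATAAA (the core promoter box bound by TBP), CCAAT (bound by the NF-Y factor), GGGCGG (the GC box, bound by Sp1 family factors), CAGCTG (an E box of the kind bound by myogenic factors) and an AP-1 element (TGA, any base, TCA). Windows are shown for Vcan and Postn, which had the largest ratios at day 6 under knockdown among the genes with a window, and for Bgn, Ogn, Aspn and Prelp, which were higher than control in that table and lower than control in the USP10 table (results given after the sequences). Capitals mark matches to any of the motifs on either strand. The windows are Vcan chr13:89742463-89742762 (minus strand), the second of 2 Postn windows chr3:54360857-54361156 (plus strand), Bgn chrX:73483351-73483650 (plus strand), Ogn chr13:49607765-49608064 (plus strand), Aspn chr13:49544193-49544492 (plus strand) and Prelp chr1:133921352-133921651 (minus strand).
Vcan: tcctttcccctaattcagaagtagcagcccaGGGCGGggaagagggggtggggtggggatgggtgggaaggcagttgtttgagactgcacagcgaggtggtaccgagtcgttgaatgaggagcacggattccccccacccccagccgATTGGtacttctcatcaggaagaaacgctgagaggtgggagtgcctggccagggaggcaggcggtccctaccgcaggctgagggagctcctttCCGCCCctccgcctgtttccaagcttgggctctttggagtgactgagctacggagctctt
Postn: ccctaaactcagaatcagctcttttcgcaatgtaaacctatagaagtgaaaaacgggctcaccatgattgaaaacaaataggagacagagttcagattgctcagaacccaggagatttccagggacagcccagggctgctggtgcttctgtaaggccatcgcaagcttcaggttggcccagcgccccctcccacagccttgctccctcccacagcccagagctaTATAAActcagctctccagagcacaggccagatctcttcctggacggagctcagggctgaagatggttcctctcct
Bgn: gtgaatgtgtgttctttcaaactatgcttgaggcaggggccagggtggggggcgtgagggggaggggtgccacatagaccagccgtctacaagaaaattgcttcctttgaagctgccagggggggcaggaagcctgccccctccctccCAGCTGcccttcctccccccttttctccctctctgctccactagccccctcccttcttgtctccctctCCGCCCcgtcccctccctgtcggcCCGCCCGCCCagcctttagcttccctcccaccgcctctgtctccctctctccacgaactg
Ogn: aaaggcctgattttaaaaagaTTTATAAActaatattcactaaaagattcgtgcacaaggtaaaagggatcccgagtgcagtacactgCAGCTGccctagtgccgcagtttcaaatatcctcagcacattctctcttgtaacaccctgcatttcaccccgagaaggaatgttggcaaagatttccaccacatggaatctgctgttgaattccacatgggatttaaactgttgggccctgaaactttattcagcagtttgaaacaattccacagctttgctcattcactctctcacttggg
Aspn: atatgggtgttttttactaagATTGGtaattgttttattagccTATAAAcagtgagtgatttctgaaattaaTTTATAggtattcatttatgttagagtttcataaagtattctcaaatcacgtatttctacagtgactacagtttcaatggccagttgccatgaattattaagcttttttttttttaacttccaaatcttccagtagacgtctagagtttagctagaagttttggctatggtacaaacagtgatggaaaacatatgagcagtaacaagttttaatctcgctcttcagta
Prelp: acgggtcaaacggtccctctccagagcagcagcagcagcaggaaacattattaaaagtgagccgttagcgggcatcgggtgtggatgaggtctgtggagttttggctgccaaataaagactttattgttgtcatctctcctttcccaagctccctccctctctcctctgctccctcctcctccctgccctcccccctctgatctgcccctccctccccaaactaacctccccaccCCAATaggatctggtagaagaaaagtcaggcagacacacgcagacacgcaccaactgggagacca

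The Postn window was the only one of the 9 with TATAAA on the gene's strand at the position usual for a TATA box, with its first base 26 bases before the start. Among all 32851 windows, 1.84% held TATAAA with its first base 35 to 20 bases before the start, and 13.6% held it anywhere on either strand. The Ogn match lies far upstream and is read on both strands as overlapping letters, and the Aspn window held 2 matches far upstream and 1 CCAAT. The Vcan window held 2 GC boxes and 1 CCAAT, and the Bgn window 3 GC boxes, of which 2 overlap, and 1 CAGCTG. The GC box occurred in 35.7% of all windows, CCAAT in 37.4% and CAGCTG in 16.3%. CAGCTG was also present in the Ogn and Sparc windows, and the genes with it stood on both sides of the control under USP10 overexpression. The AP-1 element, found in 7.81% of all windows, was in none of the 9. The bases at the start of the Ogn window, and of the Postn window not shown, were not found in GENCODE transcripts of those genes. The start used for Ogn lies upstream of its GENCODE start (49608046), so positions in that window are less certain. These are matches of letters and not mapped sites.

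Decorin (chromosome 10, 97479609 to 97518143, plus strand, GRCm38) was at or below 50.3 FPKM in every control column. Its level was 1.27 FPKM in the control at day 0 and 4.42 FPKM in the knockdown. At day 6 it was 7.94 FPKM in control cells and 2987 FPKM with the knockdown. In day 8 myotubes it was 4.19 FPKM in control cells and 8.75 FPKM with the knockdown, and in the USP10 table it was 50.3 FPKM in control cells and 3037 FPKM with USP10 overexpression. Decorin was thus higher in the treated column of all 4 tables, but near 3000 FPKM only in the 2 day 6 columns of cells altered before differentiation began. The log2 ratios, taken after adding 0.01 FPKM to each value, were 1.79 at day 0, 8.55 at day 6, 1.06 at day 8 and 5.92 under USP10 overexpression. The day 0 control value rests on about 49.4 fragments. Decorin moved from percentile 71.2 of all genes in the day 6 control to percentile 99.96 in the knockdown. Its share of the summed FPKM of the 10 genes went from 0.716% to 45.6%, and in the USP10 table from 1.04% to 43.6%.

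Biglycan (chromosome X, 73483602 to 73495933, plus strand), the closest relative of decorin, did not share this pattern. It was abundant in every column, at 368 FPKM in control cells and 492 FPKM with the knockdown at day 0, 194 and 531 FPKM at day 6, and 1714 and 1726 FPKM in day 8 myotubes. In the USP10 table it stood at 2089 FPKM in control cells and 667 FPKM with USP10 overexpression. The log2 ratio was 1.45 at day 6 under knockdown and -1.65 under USP10 overexpression, although the treated columns of those 2 tables were close. Asporin (chromosome 13, 49544443 to 49567565, plus strand), the third class I gene and one that lacks the chain attachment site of the other two, was low throughout. It was under 0.2 FPKM in both day 0 columns, then 0.708 FPKM in control cells and 6.81 FPKM with the knockdown at day 6, 3.03 and 1.98 FPKM at day 8, and 11.3 and 3.31 FPKM in the USP10 table. Its log2 ratio was 3.25 at day 6 under knockdown and -1.77 under USP10 overexpression.

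**Figure D1:**
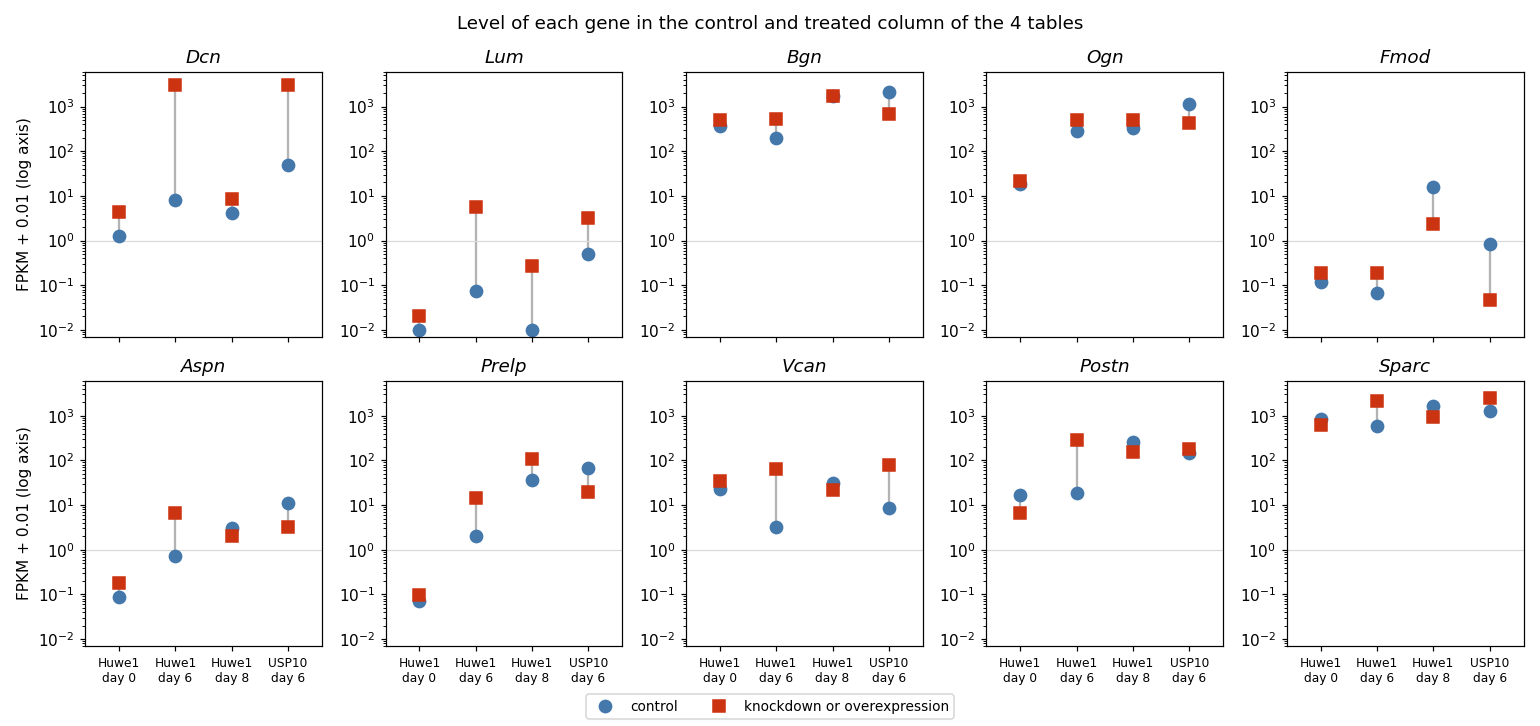
FPKM of each of the 10 genes (log axis, 0.01 added) in the control column (circles) and the knockdown or overexpression column (squares) of the Huwe1 day 0, Huwe1 day 6, Huwe1 day 8 and USP10 day 6 tables, with 1 value per column and a line at 1 FPKM. Decorin stands near 3000 FPKM in 2 treated columns and at 50.3 FPKM or less in all controls, while Bgn and Sparc are high in every column.

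Lumican (chromosome 10, 97565128 to 97572703, plus strand), a class II collagen binder, followed decorin at a much lower level. It was listed at 0 in the day 0 and day 8 controls, with 0.0104 FPKM in the knockdown at day 0 and 0.266 FPKM at day 8. At day 6 it was 0.0651 FPKM in control cells and 5.73 FPKM with the knockdown, and in the USP10 table it was 0.50 and 3.20 FPKM. The log2 ratios at day 6, 6.26 and 2.65, rest on about 4.82 and 9.65 control fragments, so their size is poorly fixed, while both treated columns are above 1 FPKM.

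Fibromodulin (chromosome 1, 134037254 to 134048277, plus strand) is a close relative of lumican that organises collagen fibrils in tendon. It passed 1 FPKM only in day 8 myotubes, where it was 16.2 FPKM in control cells and 2.36 FPKM with the knockdown, a log2 ratio of -2.77. In the other 3 tables it stayed between 0.0372 and 0.837 FPKM, the higher value being that of the USP10 table's control. Prelp (chromosome 1, 133910304 to 133921414, minus strand), a proteoglycan with a basic end that binds heparan sulfate, was 0.0615 and 0.0851 FPKM at day 0, 2.05 FPKM in control cells and 14.4 FPKM with the knockdown at day 6, and 36.4 and 107 FPKM at day 8. In the USP10 table it was 69.0 FPKM in control cells and 19.4 FPKM with USP10 overexpression. The log2 ratios of Prelp were 2.81 at day 6, 1.56 at day 8 and -1.83 under USP10 overexpression, so that it was higher with the knockdown at both differentiated time points and lower with USP10.

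Osteoglycin (chromosome 13, 49608046 to 49624501, plus strand), the class III member, was the member with the smallest log2 ratio at day 6 under knockdown, 0.87. Its level was 18.5 and 21.4 FPKM at day 0, 281 FPKM in control cells and 514 FPKM with the knockdown at day 6, and 335 and 491 FPKM at day 8. In the USP10 table it was 1137 FPKM in control cells and 423 FPKM with USP10 overexpression, a log2 ratio of -1.43. Ogn was thus higher in all 3 knockdown columns, by less than 2-fold each time, and lower under USP10 overexpression.

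Versican (chromosome 13, 89655312 to 89742509, minus strand) was, like Dcn and Lum, at least 2-fold higher than control in both day 6 tables. It stood at 23.5 FPKM in control cells and 34.5 FPKM with the knockdown at day 0, and at 3.28 and 64.6 FPKM at day 6. In day 8 myotubes it was 31.9 FPKM in control cells and 21.8 FPKM with the knockdown, and in the USP10 table it was 8.81 and 79.0 FPKM. The log2 ratios were 4.30 at day 6 under knockdown and 3.16 under USP10 overexpression, against 0.55 at day 0 and -0.55 at day 8. Both day 6 ratios were taken against control values below those of day 0 and day 8.

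Periostin (chromosome 3, 54361109 to 54391037, plus strand), a matricellular protein that binds collagen and integrins, was lower with the knockdown at day 0 and higher at day 6. It was 17.1 FPKM in control cells and 6.74 FPKM with the knockdown at day 0, and 18.6 and 285 FPKM at day 6. At day 8 it was 264 FPKM in control cells and 153 FPKM with the knockdown, and in the USP10 table it was 147 and 177 FPKM. Its log2 ratios were -1.34, 3.94, -0.79 and 0.27 in that order. Sparc (chromosome 11, 55394500 to 55423183, minus strand), a collagen-binding glycoprotein also called osteonectin, was the most abundant member in 3 of 8 columns and never below 601 FPKM. It was 842 FPKM in control cells and 632 FPKM with the knockdown at day 0, 601 and 2144 FPKM at day 6, 1618 and 930 FPKM at day 8, and 1308 and 2552 FPKM in the USP10 table. The log2 ratio was 1.84 at day 6 under knockdown and 0.96 under USP10 overexpression. Sparc and Postn, like Vcan, were lower in the knockdown than in the control at day 8.

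Genes were counted where 1 column or both reached 1 FPKM. On this count, 8 of the 9 members tested at day 6 were at least 2-fold higher in the knockdown and 0 were at least 2-fold lower, where 17.6% of all 11695 genes were at least 2-fold higher and 13.4% at least 2-fold lower. Dcn, Lum, Vcan, Postn and Aspn were at least 8-fold higher, as were 4.73% of all genes. With a pseudocount of 1, the log2 ratios of Lum and Aspn were 2.66 and 2.19, under 8-fold. Those of Dcn, Vcan and Postn stayed past 8-fold. The members' median log2 ratio was 3.25, against -0.01 for all genes. Because decorin's value in this comparison led to the choice of the set, nothing is read from these counts, and Fmod was left out as below 1 FPKM. In bulk RNA, a higher level in each cell and a larger share of cells that make a transcript cannot be told apart.

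The other tables gave smaller or divided counts. At day 0, Dcn was at least 2-fold higher and Postn at least 2-fold lower among 6 members tested (1.90% and 1.69% of all genes), with Lum, Fmod, Aspn and Prelp below 1 FPKM. In day 8 myotubes, Dcn and Prelp were at least 2-fold higher and Fmod at least 2-fold lower among 9 members (7.89% and 10.0% of all genes), with Lum below 1 FPKM and a median log2 ratio of -0.55. Dcn was close to the limit there, at 2.09-fold. Under USP10 overexpression, Dcn, Vcan and Lum were at least 2-fold higher and Bgn, Ogn, Aspn and Prelp at least 2-fold lower among 9 members (9.70% and 10.0% of all genes). Fmod was below 1 FPKM in that table, and the median log2 ratio was 0.27, against 0.05 for all genes.

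**Figure D2:**
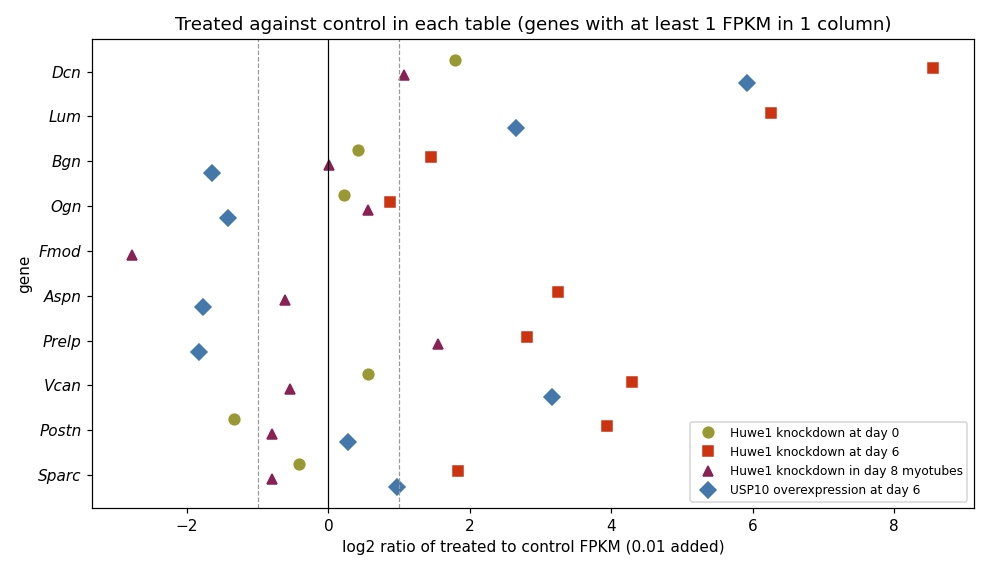
Log2 ratio of treated to control FPKM (0.01 added) of each gene in each of the 4 tables, for genes with at least 1 FPKM in 1 column, with dashed lines at 2-fold. Every day 6 knockdown point lies to the right of 0, from 0.87 for Ogn to 8.55 for Dcn, while the USP10 points of Bgn, Ogn, Aspn and Prelp lie between -1.83 and -1.43.

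Both day 6 tables have a control column, and these 2 columns differed for the set. The tables were normalized separately, so the columns were compared after centring on the median gene. All 8 members tested were at least 2-fold higher in the USP10 table's control than in the Huwe1 table's control, as were 12.3% of all genes, and 0 were at least 2-fold lower (7.61%). The difference was 35.2-fold for Prelp, 16.5-fold for Aspn, 11.3-fold for Bgn, 8.25-fold for Postn, 6.63-fold for Dcn, 4.24-fold for Ogn, 2.81-fold for Vcan and 2.28-fold for Sparc, with Lum and Fmod below 1 FPKM. The header of the USP10 table names the same wildtype day 6 input as the Huwe1 table, yet the values differ gene by gene, and which culture the second column came from is not given in the sources used here. Marker lists also differed between these columns. The differentiated muscle markers summed to 14088 FPKM in the Huwe1 table's control and 6522 FPKM in the other, and the fibroblast and mesenchymal progenitor markers to 117 and 461 FPKM. Their part in the members' difference was not tested.

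The treated columns of the same tables lay closer together, for all genes as well as for the members. Over all genes, 9.59% differed by at least 2-fold after centring, against 19.9% for the control columns. Between USP10 overexpression and Huwe1 knockdown, 0 of 9 members differed by 2-fold after centring, where 4.32% of all genes were at least 2-fold higher and 5.27% at least 2-fold lower. Dcn differed by 1.05-fold, and the furthest apart was Aspn at 1.99-fold. Without centring, the log2 ratio of Aspn was -1.04, just past 2-fold. The opposite directions of Bgn, Ogn, Aspn and Prelp in the 2 day 6 comparisons therefore came with controls that differed and treated columns that, after centring, did not differ by 2-fold.

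With the controls exchanged, an alternative chosen after seeing the data, 3 members (Dcn, Lum and Vcan) were at least 2-fold higher in the Huwe1 knockdown than in the USP10 table's control (12.1% of all genes), and Bgn, Ogn and Prelp were at least 2-fold lower (10.6%). The log2 ratio of Dcn was then 5.84, that of Lum 3.44 and that of Vcan 2.82. Set against the Huwe1 table's control, 8 members were at least 2-fold higher under USP10 overexpression (17.6% of all genes) and 0 at least 2-fold lower (15.3%), with Ogn at 0.60. Dcn, Lum and Vcan were at least 2-fold higher than either control in both treated columns. The direction of Bgn, Ogn, Aspn and Prelp depended on the control used, in both comparisons. Postn was then at 0.90 under knockdown and 3.25 under USP10 overexpression, and Sparc at 0.66 and 2.10.

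**Figure D3:**
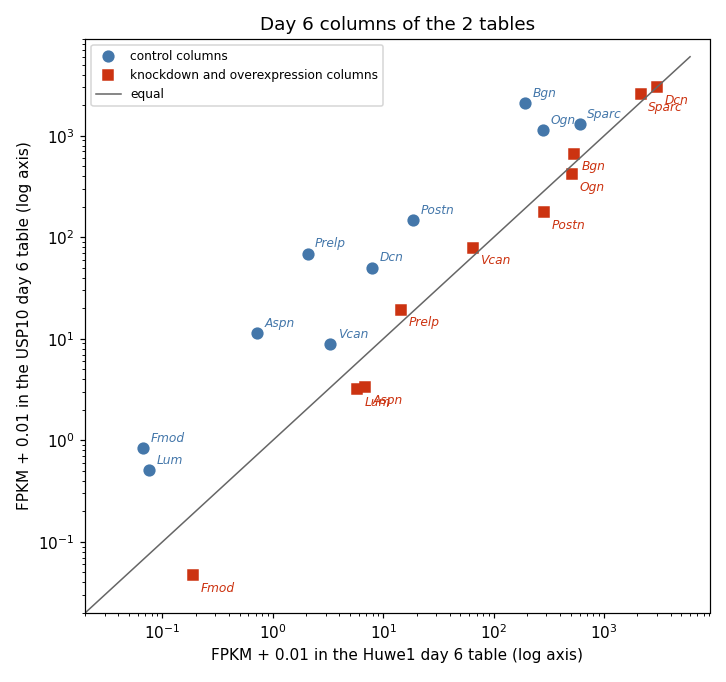
FPKM (0.01 added, log axes) of the 10 genes in the Huwe1 day 6 table (horizontal) and the USP10 day 6 table (vertical), as deposited and without centring, for the control columns (circles) and the knockdown and overexpression columns (squares), with a line where both are equal. All 10 control points lie above the line, with Prelp at 2.05 and 69.0 FPKM, and the treated points of the 9 genes above 1 FPKM lie near it.

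The control columns of the Huwe1 tables give the course of these genes through differentiation, each table normalized separately and the columns centred on the median gene. From day 0 to day 6, Prelp was 29.8-fold higher, Ogn 15.7-fold higher and Dcn 6.43-fold higher, Vcan was 6.91-fold lower, and Bgn, Postn and Sparc differed by less than 2-fold, with Lum, Fmod and Aspn below 1 FPKM (22.3% of all genes at least 2-fold higher and 22.2% lower). From day 0 to day 8, 7 of 9 members were at least 2-fold higher (19.4% of all genes) and 0 lower (16.5%), with Prelp 497-fold, Fmod 132-fold, Aspn 33.6-fold, Ogn 17.7-fold, Postn 15.1-fold, Bgn 4.56-fold and Dcn 3.21-fold higher. By the labels the day 8 control carried a non-targeting RNA and the day 0 and day 6 controls were wildtype. Time and virus treatment, with any drug selection, therefore cannot be told apart. The control day 0 values of Prelp, Aspn and Fmod rest on about 4.93, 4.05 and 7.62 fragments, so these folds are rough. In the knockdown columns, Dcn went from 4.42 FPKM at day 0 to 2987 FPKM at day 6, 670-fold after centring. The ratio was 280-fold for Lum, 150-fold for Prelp, 42.0-fold for Postn, 37.9-fold for Aspn, 23.8-fold for Ogn and 3.37-fold for Sparc. Vcan differed by 1.86-fold and Bgn by 1.07-fold. Lum, Prelp and Aspn started from 0.0104, 0.0851 and 0.169 FPKM at day 0, so their folds are rough, and that of Lum depends on the 0.01 added. Of 9 members, 7 were at least 2-fold higher from day 0 to day 6 in the knockdown (19.0% of all genes) and 0 lower (17.1%).

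A total of 3 chromosomal clusters hold 6 of the 10 genes. Dcn and Lum lie with Kera and Epyc in 203 kb of chromosome 10 (97479609 to 97682454). Kera was listed at 0 in all 8 columns and Epyc was at most 0.303 FPKM, so the 2 members were the only genes of that cluster above 1 FPKM. Aspn and Ogn lie with Ecm2 and Omd in 120 kb of chromosome 13 (49504810 to 49624501). Omd, or osteomodulin, was 1.62 and 1.89 FPKM at day 0, 1.20 FPKM in control cells and 22.6 FPKM with the knockdown at day 6, 3.77 and 17.0 FPKM at day 8, and 89.5 and 19.0 FPKM in the USP10 table. Its log2 ratios had the same sign as those of Ogn in each of the 4 tables, at 4.23 at day 6 and -2.24 under USP10 overexpression. With the day 6 controls exchanged and the columns centred, the ratio of Omd was -2.04 under knockdown and 3.98 under USP10 overexpression. Its direction at day 6 thus also depended on the control used. Ecm2 was between 0.222 and 6.06 FPKM.

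These 4 genes lie inside Cenpp, a centromere protein gene on the opposite strand (49464023 to 49652785), and the deposited table gives them 1 shared locus. The libraries were made with a kit that marks strand, but whether the counting used strand is not given in the sources used here, so reads of Cenpp and of the cluster may not be fully separated. Cenpp was 8.76 and 10.9 FPKM at day 0, 2.29 and 2.15 FPKM at day 6, 10.1 and 1.84 FPKM at day 8, and 2.48 and 1.59 FPKM in the USP10 table. It was below Ogn in every column. It was above Aspn, Omd and Ecm2 in the day 0 columns and in the Huwe1 table controls of day 6 and day 8. Prelp and Fmod lie with Optc, or opticin, in 151 kb of chromosome 1 (133897199 to 134048277). Optc was at most 1.54 FPKM, and the 2 members had opposite directions at day 8.

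Other genes of the same biology were taken from 6 lists with 109 genes. For every list, the share of all genes at least 2-fold higher and lower was 17.6% and 13.4% at day 6 under knockdown. It was 9.70% and 10.0% under USP10 overexpression, 1.90% and 1.69% at day 0, and 7.89% and 10.0% at day 8. Of the other small leucine-rich proteoglycans, 2 of 4 tested were at least 2-fold higher at day 6 under knockdown and 1 lower, and 1 and 3 of 4 under USP10 overexpression. Podnl1 was lower in both, with log2 ratios of -1.27 and -1.88. Of 12 other matrix and cell surface proteoglycans, 7 were at least 2-fold higher at day 6 under knockdown and 1 lower. Tgfbr3, or betaglycan, a TGF-beta co-receptor, went from 1.86 to 18.0 FPKM. Under USP10 overexpression 1 of 14 was higher and 4 lower.

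Of 17 other matricellular genes, 10 were at least 2-fold higher at day 6 under knockdown and 3 lower (17.6% and 13.4% of all genes). Mgp, an inhibitor of calcification, was 23.5 FPKM in control cells and 1697 FPKM with the knockdown, and 227 and 2112 FPKM in the USP10 table. Thbs2, a thrombospondin, was 4.12 and 238 FPKM, Ctgf, a member of the CCN family, 6.04 and 260 FPKM, and Nov, also of that family, 0.0282 and 11.2 FPKM. Sparcl1, the relative of Sparc, had the opposite sign at 6.28 FPKM in control cells and 0.0233 FPKM with the knockdown, and was named after its value was seen. Under USP10 overexpression 4 of 15 were higher and 3 lower (9.70% and 10.0% of all genes). In day 8 myotubes 3 of 17 were higher and 3 lower (7.89% and 10.0%). Tenascin C (Tnc) was 111 FPKM in control cells and 11.5 FPKM with the knockdown there, beside Postn, Sparc and Vcan at ratios of less than 2-fold.

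The enzymes that build the chains of these proteoglycans had 11 of 22 genes at least 2-fold higher and 0 lower at day 6 under knockdown (17.6% and 13.4% of all genes). Their median log2 ratio was 1.00. Csgalnact1, which starts chondroitin chains, was 1.06 FPKM in control cells and 16.4 FPKM with the knockdown, and Chst12, a chondroitin 4-sulfotransferase, 1.10 and 14.5 FPKM. A further gene of the list, Chst7, was at least 8-fold higher at under 10 FPKM. Under USP10 overexpression 7 of 22 were higher and 2 lower, and at day 0 the counts were 0 and 1 of 21. Of 12 genes for hyaluronan, versican cleavage and procollagen processing, 8 were higher and 1 lower at day 6 under knockdown. Pcolce2 and Pcolce, enhancers of procollagen cleavage, were 0.604 and 84.7 FPKM and 14.8 and 129 FPKM. Under USP10 overexpression 4 of 12 were higher and 0 lower, with the hyaluronan synthase Has1 listed at 0 in the control.

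Of 10 genes tested for ligands and receptors of decorin, 1 (Lrp1, an endocytic receptor, from 27.1 to 157 FPKM) was at least 2-fold higher and 1 (Tgfb3) lower at day 6 under knockdown (17.6% and 13.4% of all genes), and 0 and 1 under USP10 overexpression (9.70% and 10.0%). Myostatin was below 1 FPKM in all 8 columns. At day 0 and day 8, 0 of 10 in this list passed 2-fold in either direction. Against the day 6 knockdown background of 17.6% and 13.4%, 39 of the 77 genes tested over the 6 lists were higher and 7 lower. The counts were 4 and 3 of 68 at day 0 (1.90% and 1.69% of all genes), 14 and 6 of 81 at day 8 (7.89% and 10.0%), and 17 and 13 of 77 under USP10 overexpression (9.70% and 10.0%). Each count uses its own table's control, and the controls were not exchanged for these lists. Every list had a higher summed level in the USP10 table's control than in the Huwe1 day 6 control. For the other matricellular genes these control sums were 1911 and 681 FPKM, and the treated sums 4278 and 3856 FPKM. The day 6 counts may therefore depend on the control, as for the members.

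**Figure D4:**
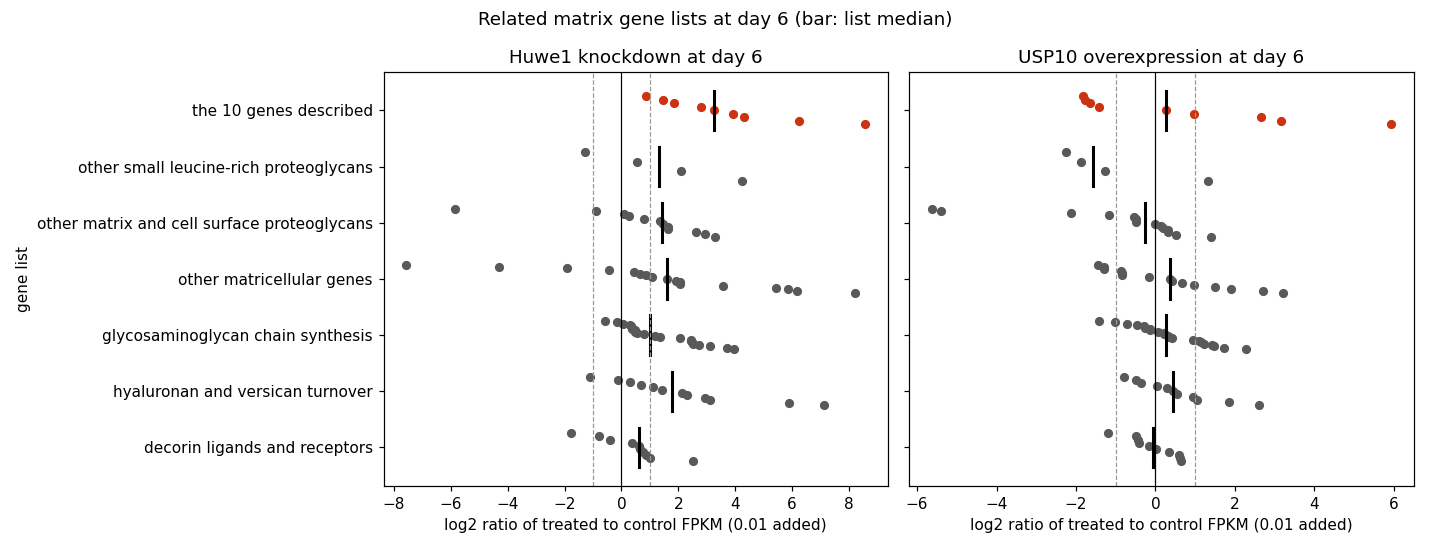
Log2 ratio of treated to control FPKM (0.01 added) at day 6 for the 10 genes described (top) and the 6 related lists, for Huwe1 knockdown (left) and USP10 overexpression (right), 1 point per gene with at least 1 FPKM in 1 column and none listed at 0 in a column, with a bar at each list's median and dashed lines at 2-fold. Over all genes tested, including any not drawn, the medians under knockdown run from 0.63 for decorin ligands and receptors to 3.25 for the 10 genes. Under USP10 overexpression they run from -1.58 for the other small leucine-rich proteoglycans to 0.49 for hyaluronan and versican turnover. Has1 counts in that last median but is not drawn, and the bar is the median of the points drawn.

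Markers of other cell types were looked up because these matrix genes are typical of connective tissue cells. All 5 fibroblast and mesenchymal progenitor markers tested were at least 2-fold higher at day 6 under knockdown, as were 17.6% of all genes. Their summed level went from 117 to 1526 FPKM. Ly6a was 2.54 and 584 FPKM, Cd34 1.59 and 145 FPKM and Col1a1 4.61 and 107 FPKM, while Thy1 was listed at 0 in both columns and Pi16 and Dpp4 were under 1 FPKM. Under USP10 overexpression 2 of 5 were at least 2-fold higher (9.70% of all genes). Their sum went from 461 to 1090 FPKM, with Ly6a at 31.3 and 429 FPKM. The sum went from 349 to 267 FPKM at day 0 and from 504 to 793 FPKM at day 8. At day 8, however, 2 of the 5 tested were above the control and 3 below it. Col3a1, the largest part of the sum, was 411 and 710 FPKM there, and Ly6a was 13.9 and 4.28 FPKM. C2C12 cells themselves express several of these genes, since the day 0 control held Col1a1 at 144 FPKM and Ly6a at 15.5 FPKM. Their part in the members' values was not tested.

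Of the endothelial markers, Cdh5 was 0.0241 FPKM in control cells and 6.83 FPKM with the knockdown at day 6, after 13.5 FPKM in the day 0 control. Tek was 0.0616 and 1.08 FPKM at day 6. Both endothelial genes tested there were thus at least 8-fold higher, as were 4.73% of all genes. Of the others, Pecam1, Vwf and Emcn were at most 0.346 FPKM in every column. Macrophage markers summed to 1.61 and 1.59 FPKM at day 6, most of it Cd68, with Emr1 at 0 and Ptprc at most 0.0102 FPKM in all columns. Of the adipocyte genes, Adipoq, Cfd and Lep were listed at 0 throughout, while Fabp4 was 0.287 and 1.33 FPKM at day 0, 0.348 and 4.68 FPKM at day 6, and 0.535 and 3.84 FPKM in the USP10 table. The tendon factor Scx was 108 and 59.4 FPKM at day 6, Mkx was 0.0203 and 1.30 FPKM, and Tnmd was at most 0.320 FPKM. Chondrocyte and osteoblast markers summed to 20.4 and 34.9 FPKM at day 6.

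Among all genes expressed in every table, the pattern nearest to that of decorin over the 4 log2 ratios was that of AI662270, at a Euclidean distance of 2.38. It was followed by Mgam, an alpha-glucosidase (3.06), Mfsd6, a membrane transporter (3.50), Syt13, a synaptotagmin (3.78), and Mgp (4.01). No member was among the candidates for this ranking. At day 6, AI662270 was 0.228 and 36.3 FPKM, Mgam 0.334 and 66.8 FPKM, Mfsd6 0.327 and 25.0 FPKM, and Syt13 0.197 and 42.4 FPKM. AI662270 and Syt13 were at 38.0 and 40.6 FPKM in the day 0 control, where decorin was at 1.27 FPKM. They were under 5 FPKM in both differentiated Huwe1 controls, where decorin was at 7.94 FPKM at day 6 and 4.19 FPKM at day 8. With the knockdown at day 8 they stayed low, at 1.17 and 1.83 FPKM, as did decorin at 8.75 FPKM. The 4 ratios share libraries, and the distances are a description only.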

How the data were processed

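Poly(A) RNA of 10 C2C12 libraries was made into directional libraries with the ScriptSeq v2 kit and sequenced on an Illumina instrument. Per the labels and the study's methods, the authors mapped reads to mm10 (TopHat in the methods, Bowtie2 in the submitters' processing notes) and ran Cuffdiff; versions are not given in the sources used here. The 4 deposited tables hold 1 FPKM value per condition and gene, so the 2 knockdown libraries of a time point are pooled, and p-values, q-values and fold changes of the authors' own comparisons, which were not used. The header of the USP10 table names the same control input as the Huwe1 day 6 table, although the values differ.

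From the 8 deposited FPKM columns, log2((treated + 0.01)/(control + 0.01)) was computed for genes that reached 1 FPKM in 1 column or both, and genes past 2-fold were counted beside the share of all such genes. With 1 value per condition there was no test, standard error or leave-one-out. Columns of different tables were compared after centring on the median gene. Depth was estimated from the spacing of low FPKM values times transcript length, which covers counting error only. No estimate exists for pooled columns. Promoter windows were RefSeq GRCm38.p6, and places GENCODE annotation of the same build. As a check of the code only, 200 genes were changed 4-fold in an artificial version of the Huwe1 day 6 comparison (10819 genes), and 200 were recovered. The spread between cultures did not enter this check, and the error of the 2-fold counts was not tested.

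The genes, lists, markers, motifs and alternatives were chosen with earlier results of these data known. All 10 genes are given in every column. From each wider list the text names genes at least 8-fold apart with at least 10 FPKM in 1 column, at most 4 per list and comparison, and it names neighbours within the same proteoglycan gene cluster, the 5 genes nearest to Dcn, and Huwe1 and Usp10 as label checks; other names, such as Podnl1, Lrp1, Tgfb3, Sparcl1, Chst7 and Has1, were chosen after their values were seen. Alternatives were other pseudocounts, other minimums, centring and, added after seeing the data, the control of the other day 6 table. Values were computed in pandas 2.3.3 and numpy 2.4.6 under Python 3.11.15 and drawn with matplotlib 3.10.9.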

Additional observations from a re-analysis of the deposited data

Results flagged for a closer look

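The log2 ratio of Postn between Huwe1 knockdown and control was -1.34 at day 0 and 3.94 at day 6, a difference of 5.27 between opposite directions. The difference was not tested, since each condition has 1 value at each day. With the control of the other day 6 table, after centring on the median gene, the day 6 ratio of Postn was 0.90, under 2-fold.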

How the results depend on the processing

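Of 48 counts recomputed with other pseudocounts, minimums and centring, 45 stayed within 1.5 times, and of 192 ratios of single genes 191 kept their direction and their side of 2-fold. The exceptions were the count of genes at least 2-fold higher at day 0, which was 3 with no minimum and 0 with at least 5 FPKM, and that at day 8, which was 1 with a pseudocount of 1 (Dcn at 0.91). Fewer or more low genes entered under each minimum. A minimum only chooses which genes enter and leaves a gene's ratio unchanged. The agreement of single-gene ratios under the minimums was therefore fixed in advance and shows nothing about them. With the control of the other day 6 table, chosen after seeing the data, 3 genes were higher and 3 lower at day 6 under knockdown, and 8 were higher and 0 lower under USP10 overexpression. The log2 ratios that changed direction were those of Bgn (-2.03), Ogn (-1.20), Aspn (-0.78) and Prelp (-2.32) under knockdown and of Bgn (1.79), Ogn (0.60), Aspn (2.22) and Prelp (3.25) under USP10 overexpression. The cause was not tested. Depth limits Lum, Fmod and the day 0 values of Aspn and Prelp. No paired analysis was possible because each table gives 1 value per condition, and for the same reason no library could be left out.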
